A study of Mus musculus with 4 samples.

Results

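The imprinted noncoding RNA genes described here were Meg3, Rian, Mirg, Kcnq1ot1, Airn, Snhg14 and H19, 7 of the 12727 placed long noncoding RNA (lncRNA) genes of the RefSeq mouse table. Their members among the data were the peaks of DHX9, an RNA helicase that unwinds RNA duplexes, whose midpoint lay in the body of one of these genes on mm10, and 73 of the 59563 peaks (0.123%) met this rule. The peaks came from FLASH, a form of CLIP-seq in which ultraviolet light links RNA to the proteins it touches, an antibody recovers 1 protein, and the attached RNA is sequenced. The study had 2 pulldowns with a rabbit antibody against DHX9 and 2 control pulldowns with rabbit IgG (replicates A and B of each). All came from WT26 cells, a male line of mouse embryonic stem (ES) cells of strain C57BL/6x129sV that needs no feeder cells and was grown with leukemia inhibitory factor. The series has 1 list of peak positions, which gives no height, p-value or value per sample. How the replicates were combined and how the IgG samples were used in calling peaks is not stated, so whether a peak stands for enrichment over IgG is unknown. No between-replicate error and no sequencing depth can therefore be given, and the counts below describe positions in that list. The list holds no measure of RNA amount, so that little RNA and little binding cannot be told apart.

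Imprinted genes are expressed from the copy inherited from 1 parent only, and they lie in clusters controlled by a stretch of DNA methylated on 1 parental copy. Many clusters hold a long noncoding RNA. Kcnq1ot1 and Airn are transcribed from the paternal copy, antisense to the coding genes Kcnq1 and Igf2r, and are known for silencing their neighbours on that copy. Snhg14 is a very long paternal transcript of the Prader-Willi and Angelman region that hosts arrays of C/D box snoRNAs, small guide RNAs, and runs antisense into the ubiquitin ligase gene Ube3a. Meg3, Rian, Mirg and H19 are maternal transcripts, and they host microRNAs or, for Rian, mainly snoRNAs.

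Of the 7 genes, 2 held peaks and 5 held none. Snhg14 had 39 peaks and Kcnq1ot1 had 34, while Meg3, Rian, Mirg, Airn and H19 had 0 each. Among all lncRNA genes 4.32% held at least 1 peak and 1.74% at least 3, and both genes with peaks passed the higher count. Over lncRNA genes with a peak the median was 2 peaks, and by number of peaks Snhg14 ranked 8 and Kcnq1ot1 ranked 10 of 550. Counting only peaks in no other gene, Snhg14 had 19 and ranked 12 of 244 lncRNA genes with such a peak, and Kcnq1ot1 had 0. Of the 73 peaks, 72 were on the minus strand, which is the strand of both Kcnq1ot1 and Snhg14, and 1 was on the plus strand. The peaks followed gene strand elsewhere in the list as well: of 43475 peaks lying in 1 gene alone, a protein-coding gene of known strand, 99.0% were on that gene's strand (3830 genes).

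**Figure D1:**
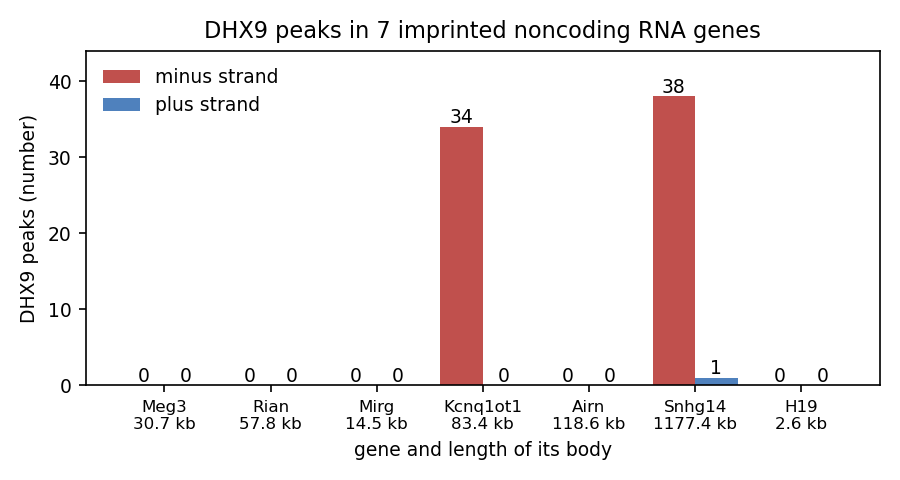
Number of DHX9 peaks (y axis) on the minus and plus strand in each imprinted noncoding RNA gene (x axis, with the length of the gene body in kb). Bars are seen for Kcnq1ot1 with 34 minus-strand peaks and Snhg14 with 38 minus-strand peaks and 1 plus-strand peak, and the other genes stand at 0.

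Both genes with peaks were long. Kcnq1ot1 spans 83.4 kb of chromosome 7 and had 0.407 peaks per kb. Snhg14 spans 1177 kb of the same chromosome and had 0.0331 peaks per kb. Of 1097 other lncRNA genes between 0.5 and 2 times the length of Kcnq1ot1, 65 (5.93%) held a peak and 3 held at least 34. Airn is longer than Kcnq1ot1, at 119 kb, and held none, and of 666 lncRNA genes of like length 41 (6.16%) held one. For the lengths of Meg3, Rian, Mirg and H19, the shares of like-length lncRNA genes with a peak were 5.61%, 6.36%, 5.02% and 2.75%. Snhg14 had 3 lncRNA genes of like length, of which 0 held a peak, so it has almost no comparison by length. A lack of peaks is thus the common state for lncRNA genes of the other 6 lengths.

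**Figure D2:**
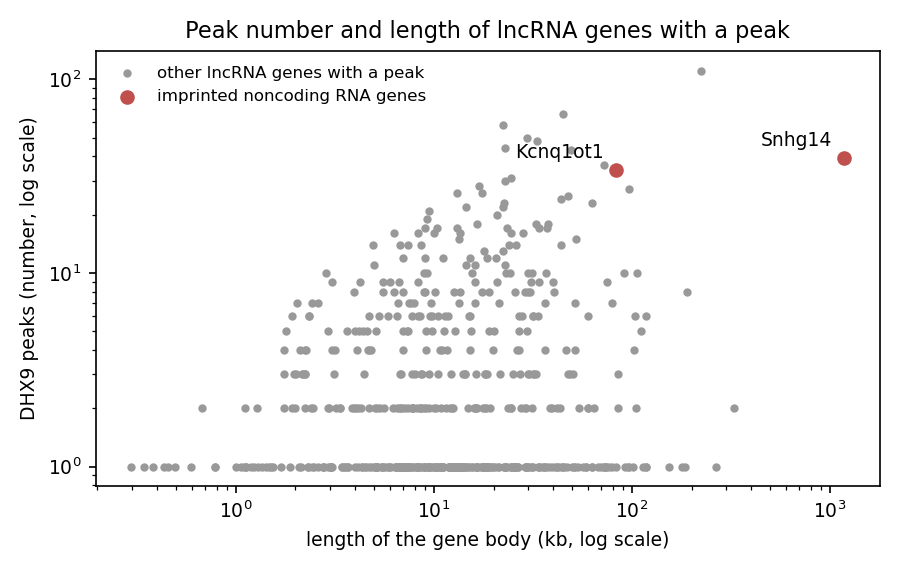
Number of DHX9 peaks (y axis, log scale) against the length of the gene body in kb (x axis, log scale) for the 550 lncRNA genes with a peak, 1 point per gene. Kcnq1ot1, with 34 peaks, and Snhg14, with 39, are in red; Snhg14 lies apart at 1177 kb.

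Kcnq1ot1 is the antisense RNA of the Kcnq1 cluster, which also holds the cell cycle inhibitor gene Cdkn1c. All 34 of its peaks (chromosome 7, gene body 143213111 to 143296547, RefSeq gene 63830) were on the minus strand, and all lay inside the body of Kcnq1, a potassium channel gene that extends beyond Kcnq1ot1 on both sides. Kcnq1 spans 320.2 kb. Its remaining 237 kb outside Kcnq1ot1 held 0 peaks, and no peak of Kcnq1 was on the plus strand. The peaks counted for Kcnq1 are therefore the same 34 peaks, on the strand of its antisense transcript. The nearest peaks beyond Kcnq1ot1 were 145 kb below it, on the plus strand, and 217 kb above it, on the minus strand.

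The peaks of Kcnq1ot1 were crowded near its start. The first peak (on the side of the start) began 144 bases into the transcript, and 16 of the 34 lay in the first 10 kb, where they covered 43.0% of the bases. The next 10 kb held 10 peaks and 23.95% coverage. From 20 kb onwards the successive stretches of 10 kb held 1, 5, 1 and 1 peaks, and the last 32.1 kb of the gene body held 0. The median midpoint was 11.3 kb from the start, and 26 peaks lay within 20 kb. Uneven RNA along the transcript and uneven binding cannot be told apart.

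**Figure D3:**
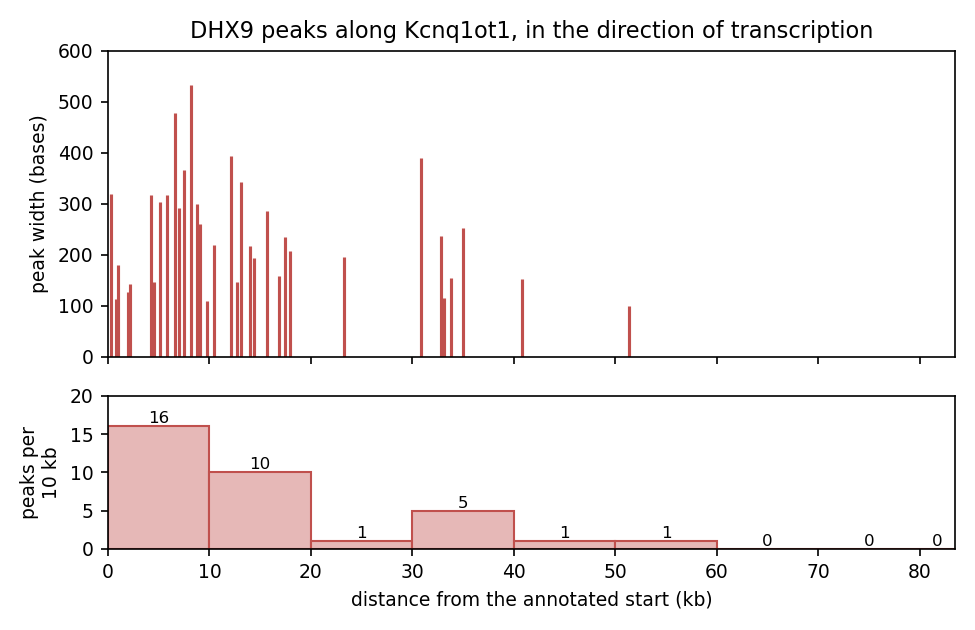
Upper panel, width in bases (y axis) of each of the 34 peaks of Kcnq1ot1 at the distance of its midpoint from the annotated start (x axis, kb). Lower panel, peaks per 10 kb, falling from 16 in the first stretch to 10 in the second and 0 beyond 60 kb.

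These peaks fell into 9 runs, a run being peaks on 1 strand separated by at most 1 kb. Runs are common in the list, where 71.2% of gaps between neighbouring peaks on 1 strand were this short. In Kcnq1ot1, with 34 peaks, 25 gaps were. The largest run of Kcnq1ot1 held 12 peaks over 6.42 kb, from 4.13 to 10.6 kb past the start. A run of 5 peaks over 2.10 kb lay next to the start, and another of 5 peaks over 2.61 kb lay between 11.9 and 14.5 kb. Further runs of 4 peaks each lay between 15.6 and 18.1 kb and between 32.7 and 35.1 kb, and the other 4 were single peaks. Peaks had a median width of 226 bases (range 99 to 532), against 196 over the whole list. The widest, chr7:143288084-143288615, lay 7.93 kb from the start, inside the largest run, and the narrowest was the peak farthest from the start, which ended 51.4 kb along the gene. Median width was 295 bases in the first 10 kb and 218 in the second, and the peaks of Kcnq1ot1 together covered 8.29 kb, or 9.94% of its body.

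The windows around the starts from which these distances were counted are shown for the genes whose peaks began just after a start, Kcnq1ot1 and Snurf (a short coding gene inside Snhg14, described below), beside those of Airn, which had no peak, and Snhg14, which had none near its annotated start. Each is 250 bases before to 50 bases after a start, from RefSeq (GRCm38.p6), 5′ to 3′ on the gene's strand, and the capitals mark the 50 bases from the start onwards. The windows are chr7:143296498-143296797 (minus) for Kcnq1ot1, chr7:60005150-60005449 (minus) for Snurf, chr17:12741061-12741360 (plus) for Airn and chr7:60450128-60450427 (minus) for Snhg14.
Kcnq1ot1: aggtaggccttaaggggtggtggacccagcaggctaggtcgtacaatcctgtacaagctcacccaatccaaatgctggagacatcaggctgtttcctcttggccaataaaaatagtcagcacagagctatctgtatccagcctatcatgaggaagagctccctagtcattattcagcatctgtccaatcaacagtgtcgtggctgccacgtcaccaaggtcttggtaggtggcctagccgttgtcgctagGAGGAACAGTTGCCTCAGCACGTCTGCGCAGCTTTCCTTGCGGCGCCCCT
Snurf: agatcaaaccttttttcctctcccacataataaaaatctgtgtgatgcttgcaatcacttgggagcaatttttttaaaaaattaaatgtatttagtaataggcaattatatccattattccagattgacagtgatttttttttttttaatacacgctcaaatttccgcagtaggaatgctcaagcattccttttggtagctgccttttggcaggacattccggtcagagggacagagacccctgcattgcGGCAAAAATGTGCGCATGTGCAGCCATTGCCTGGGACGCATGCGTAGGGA
Airn: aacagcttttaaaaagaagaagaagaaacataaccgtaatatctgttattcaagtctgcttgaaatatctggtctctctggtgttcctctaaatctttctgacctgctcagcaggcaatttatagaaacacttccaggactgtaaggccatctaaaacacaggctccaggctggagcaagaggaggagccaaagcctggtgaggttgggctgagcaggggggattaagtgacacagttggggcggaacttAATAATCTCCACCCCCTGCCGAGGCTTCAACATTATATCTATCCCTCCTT
Snhg14: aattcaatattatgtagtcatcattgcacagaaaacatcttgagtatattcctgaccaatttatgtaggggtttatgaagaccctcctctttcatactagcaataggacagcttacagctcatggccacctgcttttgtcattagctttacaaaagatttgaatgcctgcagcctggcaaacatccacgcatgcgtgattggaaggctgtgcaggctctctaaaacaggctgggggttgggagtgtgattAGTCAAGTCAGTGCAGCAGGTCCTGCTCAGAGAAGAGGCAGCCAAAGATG
None of these 4 windows overlapped a peak. They held 9, 7, 3 and 2 CpG dinucleotides in the order printed, against a median of 7 over 32851 such windows. The letters TGCCGC, the core recognised by the imprint-binding protein ZFP57 when methylated, were searched on both strands (as TGCCGC or GCGGCA). They occurred in 11.6% of all windows and in 1 of these 4, that of Snurf, across the annotated start.

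Snhg14 (chromosome 7, 59272737 to 60450177, RefSeq gene 52480) held its peaks in a small part of its body. All 38 minus-strand peaks lay within 34.9 kb, 2.96% of the gene, between 445 and 480 kb from the annotated start. There they covered 26.2% of the bases. This stretch begins just past the annotated start of Snurf, whose body lies inside that of Snrpn. Snurf encodes a small protein, and Snrpn encodes SmN, a core protein of spliceosomal snRNPs. The start of Snurf (gene body 59982495 to 60005199) lay 58 bases before the first of these peaks in the direction of transcription. Snrpn as annotated shares its start with Snhg14 and its end with Snurf.

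Both the Snurf body and the sequence just past its end held peaks. The 22.7 kb of the Snurf body held 18 peaks (0.793 per kb), with a median width of 168 bases and 14.4% of bases covered. The 12.2 kb past its end, down to the last peak, held 20 peaks (1.64 per kb), with a median width of 277 bases and 48.1% of bases covered. The widest peak of Snhg14, 554 bases, was among the latter. Snhg14, Snrpn and Snurf share the minus strand, so the 18 peaks in Snurf cannot be assigned to 1 of them. Of the 20 beyond it, 19 had their midpoint in no other annotated gene, though 1 of these reached across the end of Snurf. The remaining one was centred on a snoRNA gene.

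The runs of Snhg14 differed in size. The largest held 20 peaks over 10.1 kb and crossed the end of Snurf. That end lay inside a peak of this run whose midpoint was outside Snurf. A gap of 631 bases inside Snurf separated this peak from the only peak of the run with its midpoint in Snurf. The other 17 peaks of the Snurf body lay beyond a gap of 7.06 kb. A run of 11 peaks over 4.10 kb and a run of 3 peaks over 0.704 kb both lay in the Snurf body. The other 5 of the 8 runs were single peaks. One of these lay at the start of Snurf, 2 more lay between it and the run of 11, and another lay past the largest run. The median gap between neighbouring peaks was 168 bases in Snhg14 and 378 in Kcnq1ot1, against 303 over the list.

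**Figure D4:**
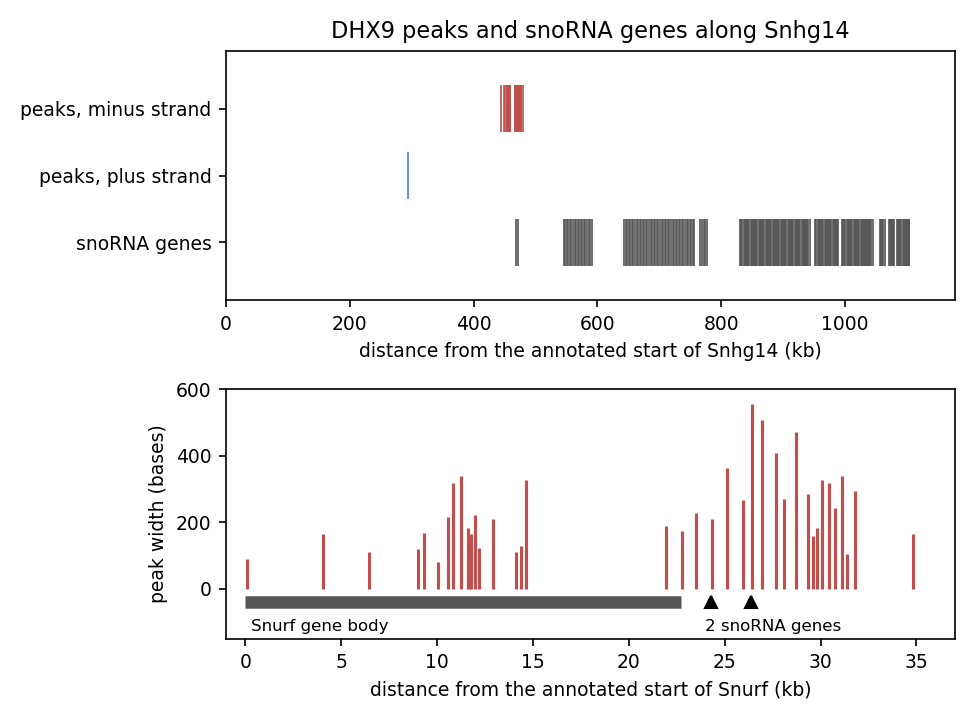
Upper panel, distance from the annotated start of Snhg14 (x axis, kb) of its 38 minus-strand peaks, its 1 plus-strand peak and its 206 snoRNA genes, 1 line each. Lower panel, width in bases (y axis) of the minus-strand peaks against distance from the start of Snurf (x axis, kb), with the Snurf body as a bar and the 2 snoRNA genes that overlap a peak as triangles; the minus-strand peaks end before the larger snoRNA arrays begin.

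The rest of Snhg14 was almost without peaks. The 445 kb from its annotated start to Snurf held 1 peak, chr7:60155746-60155884, on the plus strand. It was 139 bases wide and lay in Gm7367, a transcribed pseudogene, 151 kb from the nearest minus-strand peak of Snhg14. Past the last minus-strand peak, 698 kb held 0 peaks, a stretch that includes the lncRNA gene Ipw and the 38.1 kb shared with Ube3a. Ube3a itself held 8 peaks, all on the plus strand, which is its own strand, and all lay outside Snhg14, the nearest 21.7 kb from its end. No peak on the minus strand lay in Ube3a, so the antisense part of Snhg14 over Ube3a was not seen in this list.

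The small RNA genes hosted by these transcripts mostly lay away from peaks. Of 233 snoRNA and microRNA genes inside the 7 genes, 2 (0.858%) overlapped a peak, against 10.7% of all 2568 such genes in the table. Both were snoRNA genes of Snhg14 (2 of 206, while 13.4% of all snoRNA genes overlapped a peak). The low share stands for few stretches, not for many separate cases. The hosts other than Snhg14 held no peaks. In Snhg14, 204 snoRNA genes lay in the 698 kb past its last minus-strand peak. The 12.2 kb between the end of Snurf and that peak held 2 snoRNA genes, and both overlapped a peak. Snord64, a C/D box snoRNA gene at chr7:59978811-59978856, lay wholly inside the peak of 554 bases, 3.64 kb past the end of Snurf. LOC115486845, at chr7:59980876-59980945 and 1.55 kb past that end, lay wholly inside a peak of 210 bases, whose midpoint was in the snoRNA gene. The other 204 snoRNA genes, among them the 17 whose names begin with Snord116, had their nearest peak at least 65.4 kb away. These arrays are repeated copies, and how reads matching several copies were treated is not given in the sources used here. The 11 snoRNA genes of Rian overlapped none.

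Airn, the antisense RNA that starts inside Igf2r (chromosome 17, 12741311 to 12859884, RefSeq gene 104103), held 0 peaks on either strand. Igf2r, a receptor gene that clears the growth factor IGF2, held 1 peak in 87.3 kb. This peak, chr17:12694186-12694231, was 46 bases wide, on the strand of Igf2r and 47.1 kb outside Airn. The part of Igf2r that Airn overlaps, and Mas1 at the other end of Airn, held 0. The nearest peak on the other side of Airn was 36.8 kb away on the minus strand. The gap around Airn was 202 kb, and 1869 gaps in the list were at least as long, itself included. Kcnq1ot1 and Airn, both antisense transcripts over a coding gene, thus stood at 34 and 0 peaks.

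Meg3, Rian and Mirg lie one after the other on the plus strand of chromosome 12, between the growth regulator gene Dlk1 and the deiodinase gene Dio3. Meg3 spans 30.7 kb (109540996 to 109571729, RefSeq gene 17263), Rian 57.8 kb (109603945 to 109661716, gene 75745) and Mirg 14.5 kb (109734981 to 109749458, gene 100040724). The whole 829 kb from Dlk1 to Dio3 held 0 peaks on either strand, over all of its 61 microRNA and 19 snoRNA genes. The nearest peaks were 606 kb below Meg3 and 606 kb above Mirg. Of 59538 gaps in the list, 514 were at least as long as this one of 1421 kb, itself included. H19, the short growth-restraining transcript next to Igf2 (2.62 kb; chromosome 7, 142575530 to 142578146, gene 14955), also held 0, as did the 91.3 kb from H19 to the far end of Igf2. Its nearest peaks were 995 kb below and 481 kb above, and 490 gaps in the list were at least as long as this one of 1478 kb, itself included.

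None of the 16 microRNA genes inside Meg3, Rian, Mirg and H19 overlapped a peak. This follows from the lack of any peak in these host genes and is not a separate observation. Over all microRNA genes the share was 7.82%. The nearest peak to any of them was 482 kb away, at Mir675 of H19. All 16 matched the RefSeq sequence table (GRCm38.p6), which gives 30 mature forms with 29 different seeds. A selection is shown to identify the microRNAs that these transcripts carry, 5′ to 3′, with the seed (bases 2 to 8) in capitals. The first 2, both from Mirg, are the pair that shares a seed. They are followed by forms from Mirg, Rian, Meg3 and H19.
miR-453: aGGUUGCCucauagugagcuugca
miR-496a-5p: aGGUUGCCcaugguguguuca
miR-154-5p: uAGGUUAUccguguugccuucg
miR-410-3p: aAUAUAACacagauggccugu
miR-370-3p: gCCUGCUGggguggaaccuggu
miR-341-3p: uCGGUCGAucggucggucggu
miR-770-5p: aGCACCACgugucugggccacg
miR-675-5p: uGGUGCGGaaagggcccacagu
miR-675-3p: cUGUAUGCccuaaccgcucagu

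Coding neighbours and other imprinted genes were counted in the same way. Whether the genes listed as imprinted are expressed from 1 parental copy in these cells was not measured. Of 46 protein-coding genes so listed, 15 (32.6%) held a peak and the median was 0. Over all protein-coding genes the share was 22.8% and the median 0. The 15 include Kcnq1, Gnas, Snrpn, Snurf and Zrsr1, all of whose peaks also lay in another gene. With peaks in no other gene alone, 10 (21.7%) held one, against 21.4% of all protein-coding genes. The coding genes that overlap a member in position gave 34 peaks for Kcnq1, 19 for Snrpn, 18 for Snurf, 8 for Ube3a, 1 for Igf2r and 0 for Mas1 and Rtl1, a retrotransposon-derived gene. Others with peaks were the adaptor gene Gab1 with 128, the growth-factor receptor adaptor gene Grb10 with 13, Commd1 with 12, the histone chaperone gene Nap1l4 with 11 and the retrotransposon-derived gene Peg10 with 6. Of the peaks in the 7 noncoding genes, 53 also lay in a protein-coding gene, 34 through Kcnq1 and 19 through Snrpn.

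Of 12 other noncoding genes listed as imprinted, 6 were found in the table, and 2 of these (33.3%) held peaks. Over all lncRNA genes the share was 4.32%, though Gnasas1 and Peg3os are classed as antisense RNA and not as lncRNA. With 6 genes the share is too coarse to compare. Gnasas1 (also Nespas), the antisense RNA of the Gnas cluster on chromosome 2, held 32 peaks in 14.2 kb, or 2.25 per kb, all on the minus strand and in 1 run. Peaks covered 55.9% of its body. Of these, 23 lay in Gnas, a G-protein subunit gene on the plus strand, which held no other peak. Gnas and Kcnq1 thus both held peaks only where an antisense noncoding gene overlaps them, while Igf2r held none in the part that Airn overlaps. Snhg11 held 4 peaks, on its own strand, and Ipw, Nctc1, Peg13 and Peg3os held 0. Without Snhg11, whose imprinting was not checked here, Gnasas1 was the only one of these genes with peaks.

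**Figure D5:**
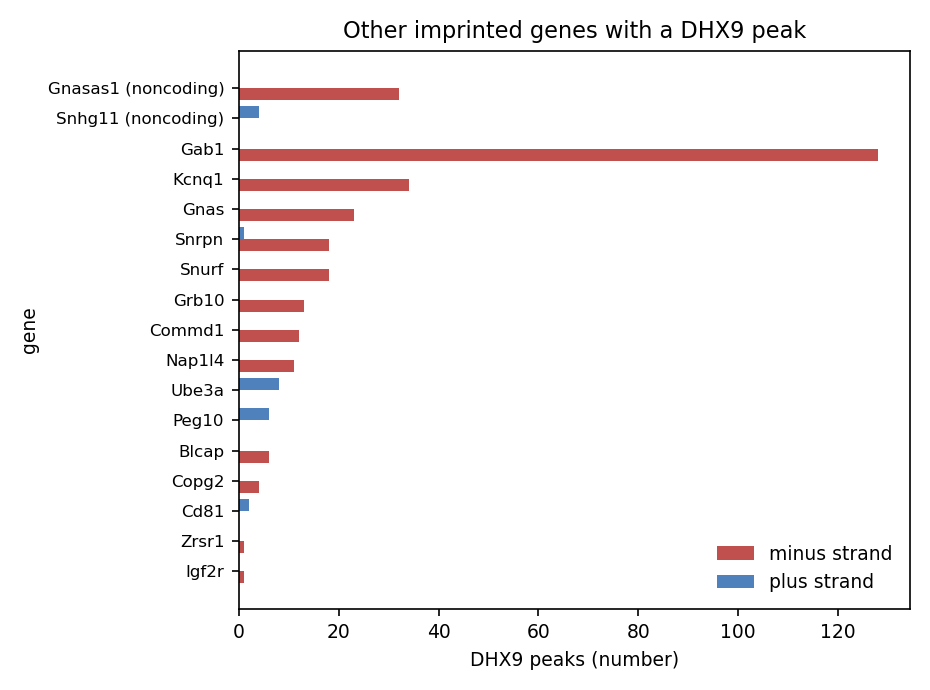
Number of DHX9 peaks (x axis) on the minus and plus strand in the other genes listed as imprinted that held a peak (y axis), noncoding genes at the top. Gab1 reaches 128 and Gnasas1 32; the peaks of Kcnq1 and Gnas are all on the minus strand.

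In a broad list of genes for imprint and chromatin regulators, nearly all held peaks. Besides genes of DNA methylation and imprint binding, it holds the demethylation genes Tet1 and Tet2. It also holds the Polycomb genes Ezh2, Eed, Suz12 and Jarid2, and Zfp42. Of its 17 genes 16 held at least 3 peaks, with a median of 22. Among all protein-coding genes 14.8% held at least 3 and 22.8% at least 1. The most peaks were in Jarid2 (205 in 191 kb), Tet1 (151 in 82.9 kb), Suz12 (84 in 41.0 kb) and Tet2 (72 in 81.5 kb). This order is by number and takes no account of gene length. The insulator protein gene Ctcf had 38 and the maintenance methyltransferase gene Dnmt1 had 33. Trim28 and Zfp57, whose proteins together hold imprints, had 15 each, and Dppa3 had 0. Of 10 ES cell markers, of which Zfp42 also stands in the list before, 8 held peaks. Of these, 7 held a peak in no other gene, the exception being Sox2. The most were in Esrrb with 64, Sall4 with 44 and Tdh with 38. Pou5f1 had 12 and Nanog 13, and Klf4 and Dppa5a held 0. Of 6 fibroblast markers 1 held peaks, Fn1 with 63, while Col1a1, Col1a2, Thy1, Dcn and Postn held 0. All 6 markers of trophoblast and endoderm held 0, and of 4 neuronal markers 1, Tubb3 with 7, held peaks. The shares of fibroblast markers (16.7%) and neuronal markers (25%) lie near the 22.8% of all protein-coding genes.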

How the data were processed

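The authors deposited 1 list of peak positions for the series. Peaks were called with PEAKachu, per the file's source column, which states neither version nor settings. Bowtie2 2.2.6 and the builds hg19 and mm10 are named in the submitters' processing notes, and mm10 was taken for this mouse list. Per the labels' protocols, random bases in the adapters served to merge PCR duplicates, and IgG and DHX9 material was mixed before RNA isolation. The list holds no score, so no test between samples was made and no sample enters on its own.

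A peak was assigned to every gene of the RefSeq table (GRCm38.p6, 49980 placed genes) that contained its midpoint, whatever the strand. Gene strand was read from RefSeq start windows, which cover 27025 genes; Kcnq1 and H19 are not among them. Small RNA genes were counted when a peak overlapped them by at least 1 base. Counts were made in Python 3.11.15 with pandas 2.3.3, and the counting was checked on simulated data. The genes and lists were chosen with earlier results of these data known; named were the 7 genes, their overlapping coding genes and hosted small RNA genes with a peak, and of each list up to 10 genes with the most peaks, with further list members chosen after their values were seen. The alternatives tried were other rules for assigning, merging and filtering peaks.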

Additional observations from a re-analysis of the deposited data

How the results depend on the processing

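No paired analysis was possible because the 1 deposited list gives no value per sample, and no replicate could be left out; how the IgG samples entered the calling is not stated. Of 32 recomputed counts, 20 stayed within 1.5 times the reported one. Any overlap in place of midpoints, and gene bodies extended by 1 kb, left the 73 peaks of the 7 genes as they were. Merging peaks within 50 bases gave 57, with 26 in Snhg14 and 31 in Kcnq1ot1, which reversed the order of these genes. Peaks of at least the median width gave 41 peaks in the 7 genes, 26 of them also in a coding gene, and 0 on the minority strand. Peaks in no other gene numbered 19, all in Snhg14 and 0 in Kcnq1ot1, which leaves 1 gene with a peak. With the peak midpoint required inside the small RNA, 1 hosted gene remained. The 17 runs became 29 with a gap of 500 bases and 8 with a gap of 5 kb. The filter on width in the strand and coding-gene counts, and any overlap there, were chosen after seeing the data. So were the rank, the coding list and the ES cell marker count by peaks in no other gene. The depth behind a peak is unknown, so a gene with 0 peaks may hold binding below the authors' threshold.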
